A study of Mus musculus with 23 samples.

Results

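The histone cluster genes are the canonical histone genes that lie next to each other in the mouse genome, and they were taken here as every table row whose gene name on the array starts with Hist1h, Hist2h, Hist3h or Hist4h. The array names 49 such genes, and 47 of them have a row among the 31395 rows of the deposited log2 table (Hist1h2ae and Hist1h3a have none). The 47 rows comprised 6 linker histone rows of class H1 and 41 core histone rows, with 13 in class H2a, 12 in H2b, 7 in H3 and 9 in H4. The data are 23 Agilent arrays with 1 dye, each hybridized with RNA from 1 brain region of 1 mouse.

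Female C57BL/6 mice, 5 weeks old at the start, received either standard chow (SC, lean mice) or chow together with a freely chosen chocolate mixture (CM, obese mice) over 8 weeks, and brains were taken after a test battery of 11 days. The frontal cortex (FC), the striatum (ST) and the hypothalamus (HT) were dissected from the same mice, 4 on each diet, and the labels call the HT samples thalamic. There were 4 arrays per region and diet, except CM FC with 3 arrays, since the CM FC sample of the mouse numbered 52 was not used here. The SC mice and the CM mice share the numbers 52, 54, 56 and 58 but are different animals. The samples are pieces of tissue, so that fewer cells of a type and less RNA per cell cannot be told apart.

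The arrays lay on 3 slides, and slide was uneven between diets and between regions. All CM ST arrays were on slide 1, all CM HT arrays on slide 2 and all CM FC arrays on slide 3. Of the SC FC arrays, 3 were on slide 1 and 1 was on slide 2, so that no slide held both diets of FC. For SC ST, 1 array was on slide 1, 2 were on slide 2 and 1 was on slide 3, and for SC HT, 1 was on slide 2 and 3 were on slide 3. The scanner software marked between 36432 and 42261 spots per array as well above background, with 36432 to 38472 on the SC FC arrays and 41481 to 42261 on the CM FC arrays. Precision is limited by how few arrays there are.

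Histones are the proteins around which DNA is wound. H2A, H2B, H3 and H4 form the core of the nucleosome, and H1 binds the linker DNA between cores. Most cluster genes are replication-dependent: their mRNA is made chiefly while a cell copies its DNA, has no intron and ends in a short stem-loop in place of a poly(A) tail. Some cluster genes also give longer, polyadenylated transcripts in cells that no longer divide, as most cells of the adult brain do. RNA was labeled here from an oligo-dT primer, which starts at poly(A).

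The sequences of the spots show which part of a histone transcript each row reads. A spot is a 60-base probe, and the 47 rows rest on 51 probes. The stem-loop letters, searched on the printed strand as GGNNNNTNNNNNNNCC with 6 bases on each side pairing around a loop of 4, were found in 5 of the 51 histone probes (9.8%) and in 16 of 55681 probes outside the controls (0.0287%). They are shown because such a spot reaches the very end of the replication-dependent mRNA, with the paired stem in capitals and the probe's position on mm9 in brackets.
Hist1h3g (chr13:23627719-23627778): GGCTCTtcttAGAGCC
Hist1h3i (chr13:21874784-21874843): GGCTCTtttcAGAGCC
Hist2h2aa1 (chr3:96049949-96050008): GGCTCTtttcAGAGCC
Hist2h2bb (chr3:96074056-96074115): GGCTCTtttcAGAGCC
Hist1h4m (chr13:21903960-21904019): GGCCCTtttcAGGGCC

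Other rows read coding sequence that the family shares. The array annotation lists more than 1 histone gene for a spot in 13 rows, and in 11 further rows the spot starts beyond base 500 of its transcript, past the length of a core histone coding sequence (for H1, past the end of the gene in RefSeq). The probes of 6 H2a rows at the end of the coding sequence are shown because they are almost the same, with capitals for bases that differ from the probe of Hist1h2ah when the probes are laid over each other without gaps.
Hist1h2ah (chr13:22127035-22127094): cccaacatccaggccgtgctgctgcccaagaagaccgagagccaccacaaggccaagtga
Hist1h2af (chr13:23626113-23626172): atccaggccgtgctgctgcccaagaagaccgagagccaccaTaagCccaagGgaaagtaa
Hist1h2ak (chr13:21845304-21845363): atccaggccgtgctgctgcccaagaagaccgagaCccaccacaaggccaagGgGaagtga
Hist1h2an (chr13:21878695-21878754): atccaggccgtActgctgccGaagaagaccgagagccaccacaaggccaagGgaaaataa
Hist2h2aa2 (chr3:96049837-96049896): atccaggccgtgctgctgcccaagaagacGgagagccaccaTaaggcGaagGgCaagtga
Hist1h2ag: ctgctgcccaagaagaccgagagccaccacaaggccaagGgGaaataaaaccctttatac
Hist1h2af, Hist1h2ak and Hist1h2an each differed from Hist1h2ah at 3 of 54 compared bases, Hist2h2aa2 at 5 of 54 and Hist1h2ag at 2 of 42. The rows of such probes are not separate measures of separate genes, and which gene of the cluster gave their signal is uncertain. In class H4, too, it is uncertain which gene gave the signal. The Hist1h4j probe differed from that of Hist1h4d at 2 of 40 compared bases, the Hist1h4k probe at 4 of 52 and the Hist1h4c probe at 7 of 52. The rows of Hist1h4d and Hist1h4j did not move together, however. Their SC means in FC and HT were 13.36 and 13.09 for Hist1h4d but 9.13 and 9.56 for Hist1h4j. The next sequences show 3 of these probes, with capitals for bases that differ from Hist1h4d.
Hist1h4d (chr13:23673515-23673574): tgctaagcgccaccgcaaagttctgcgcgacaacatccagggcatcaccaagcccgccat
Hist1h4j (chr13:21826989-21827048): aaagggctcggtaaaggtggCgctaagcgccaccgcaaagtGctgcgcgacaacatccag
Hist1h4k (chr13:21842279-21842338): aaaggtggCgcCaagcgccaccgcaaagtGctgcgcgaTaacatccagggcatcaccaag

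The genes lie in 4 places. Of the 34 Hist1 genes, 33 have a probe position between bases 21814057 and 24026527 of chromosome 13 (mm9), a span of 2212 kb, and the annotated range of Hist1h2ag is not used. The 9 Hist2 genes lie within 49.9 kb of chromosome 3 (96024171 to 96074115), the 3 Hist3 genes within 6.05 kb of chromosome 11 (58762964 to 58769013), and Hist4h4 alone on chromosome 6 (136752681 to 136752740). Genes of all 5 classes lie in the Hist1 cluster.

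Most histone rows gave signal in all brain regions. Of the 47 rows, 39 were above background on all 23 arrays, 7 on some arrays and 1, Hist1h1d, on none. All 9 H4 rows and 12 of 13 H2a rows were above background on every array, against 8 of 12 in H2b, 5 of 7 in H3 and 5 of 6 in H1. The rows seen on some arrays were Hist2h2ab (22 arrays), Hist1h3f (20), Hist1h2bp (13), Hist1h2bq (10), Hist1h3g (10), Hist1h2bb (3) and the pseudogene Hist3h2bb-ps (1). Hist1h2bq had the widest range of all rows over the 23 arrays and Hist1h4k the narrowest.

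**Figure D1:**
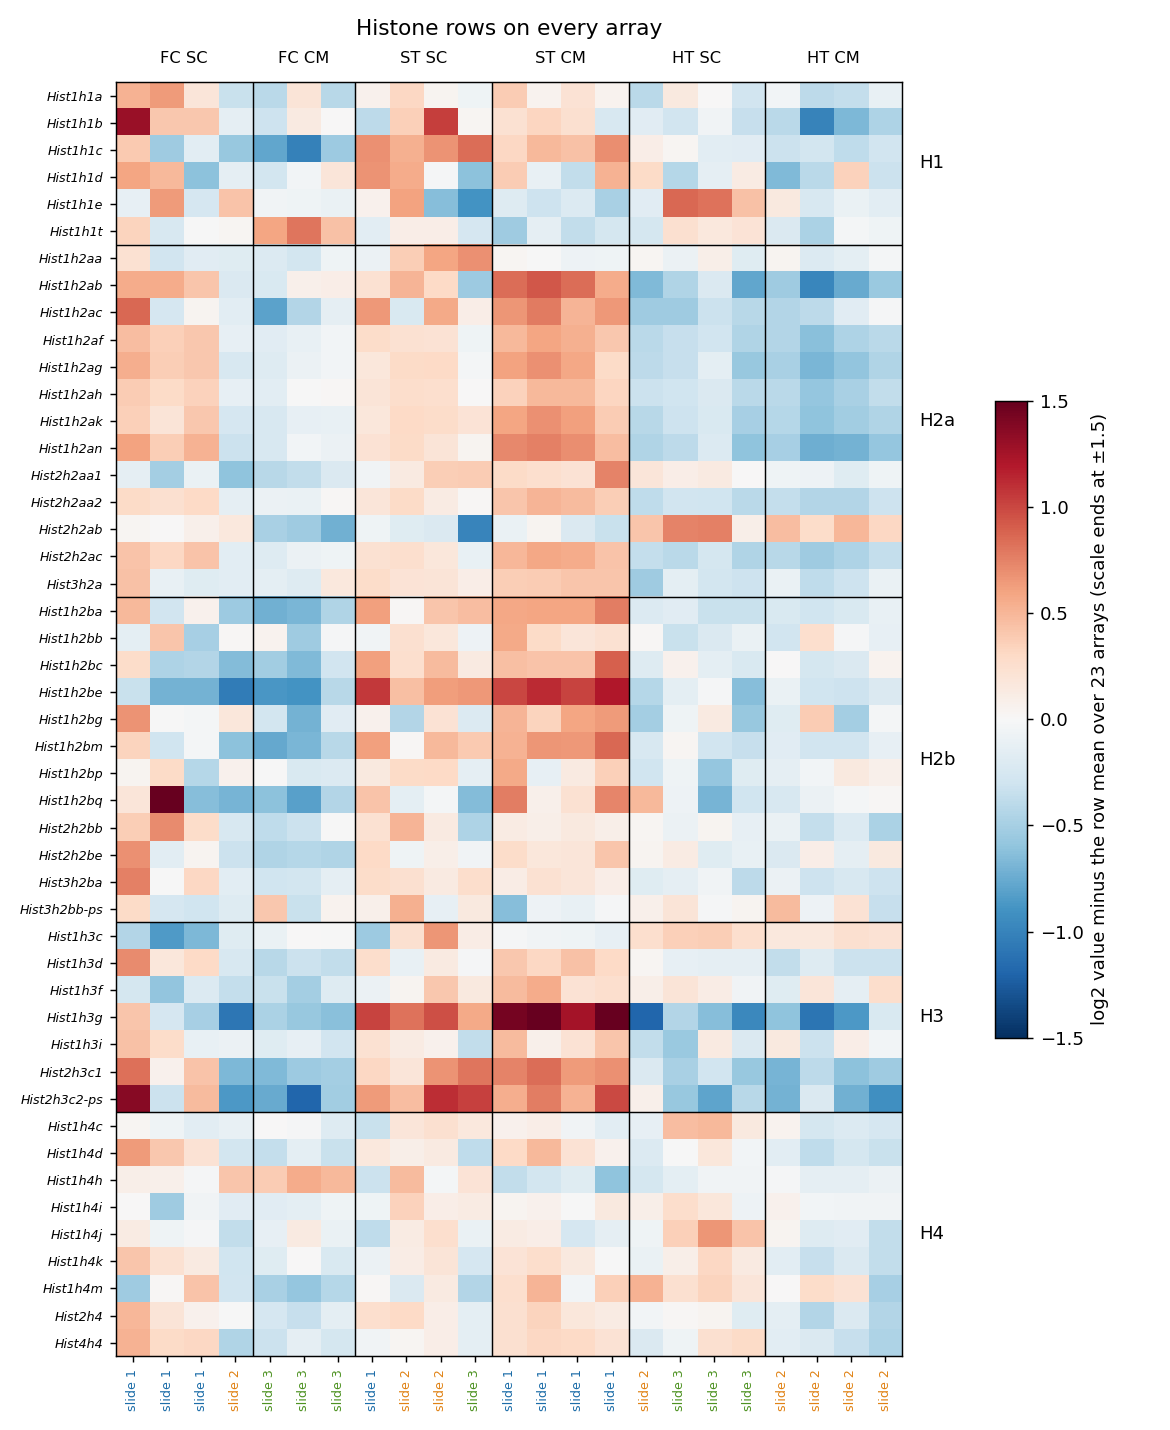
Each row is 1 of the 47 histone rows, ordered by class, and each column 1 of the 23 arrays, with the slide written below it. Color gives the log2 value minus the mean of that row over all arrays, so that rows of the same color moved together. Most H2a rows are red in CM ST and blue in both HT groups, and the 3 SC FC arrays of slide 1 are redder than the SC FC array of slide 2.

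Between regions on standard chow, nearly all histone rows that passed the test in HT against ST were lower in HT, most of them H2a rows that were mostly lower than in FC too, and all rows that passed the test in ST against FC were higher in ST (3 in H3, 2 in H2a, 2 in H2b and 1 in H1). At an adjusted p under 0.05, 8 of 47 rows were higher in ST than in FC and 0 were lower, where 14.9% of all rows in the table were called and 7.71% were called as higher in ST. In HT against FC, 13 rows were lower and 5 higher, where 43.2% of the table was called and 20.4% was lower in HT, so that a smaller share of the histone rows than of the table was called. In HT against ST, 21 rows were lower and 2 higher, where 21.5% of the table was called and 10.8% was lower in HT. The median log2 difference of the 47 rows was 0.02 for ST minus FC, -0.27 for HT minus FC and -0.29 for HT minus ST, and the medians over the whole table were -0.0025, 0.02 and 0.03. Under median scaling in place of quantile normalization, 19 rows were lower and 1 was higher in HT than in FC, and without the SC FC or the SC ST array of mouse 56 the count for ST against FC was 5. Of the rows, 11 were lower in HT than in both other regions and 5 were higher in ST than in both others. Of the striatum list, 10 of 10 rows were higher in ST than in FC. Of 11 rows of the frontal cortex list, 8 were higher in FC than in HT and 4 higher in FC than in ST, and in HT against ST 7 were lower and 3 higher. Of 14 rows of the hypothalamus list, 9 were higher and 1 lower in HT than in FC (median 2.28) and 5 were higher in HT than in ST. These counts include 2 rows of Sf1, which in mouse names splicing factor 1 and not a hypothalamus marker. All 10 rows of the thalamus list were higher in HT than in FC (median 3.74) and than in ST. The HT samples thus carried markers of the hypothalamus and of the thalamus.

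**Figure D2:**
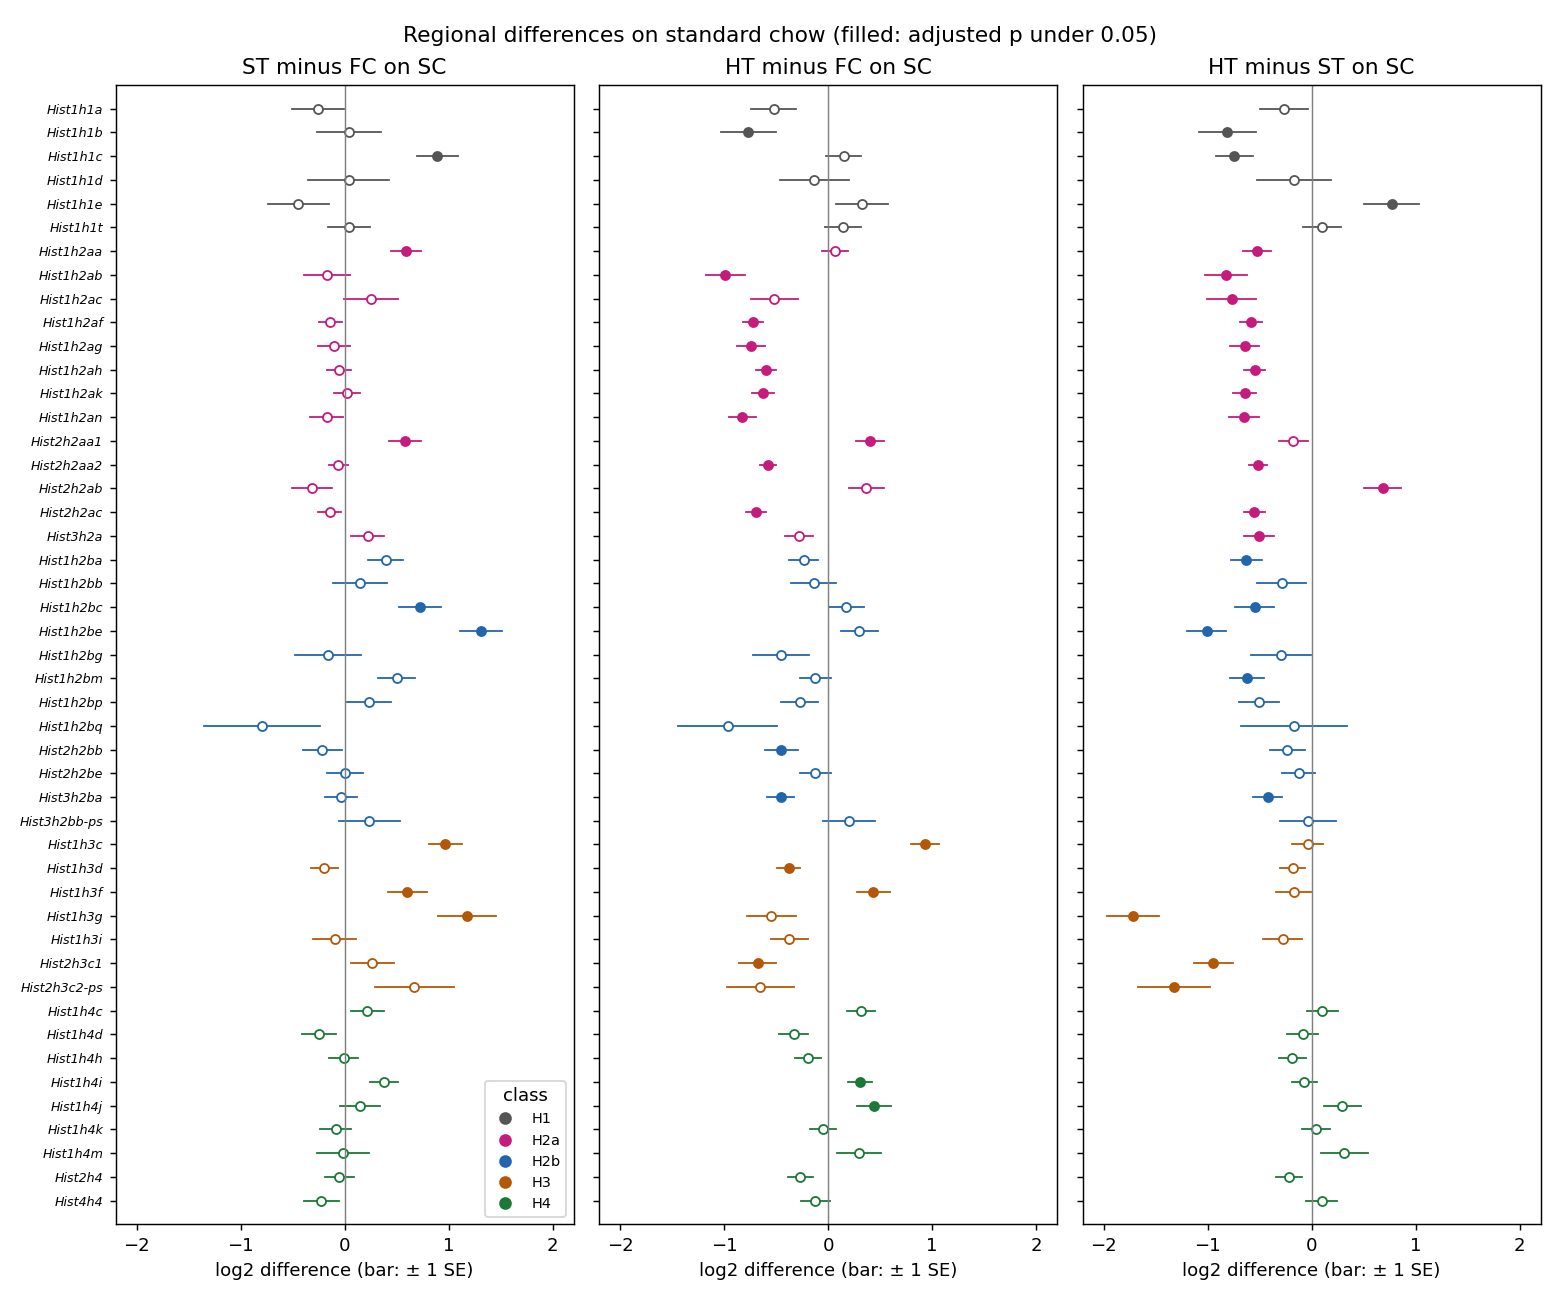
Each point is the log2 difference of 1 histone row between 2 regions on standard chow, with a bar of 1 SE in each direction, colored by class and filled where the adjusted p is under 0.05. Most H2a rows lie together below -0.5 in both comparisons with HT, whereas H4 rows lie between -0.33 and 0.44 there.

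The clearest regional row was Hist1h3g, an H3 gene whose spot holds the stem-loop. Its log2 values were 6.12, 5.91, 6.07 and 5.67 in SC ST, 4.02, 5.52, 4.85 and 4.60 in SC FC, and 4.66, 4.46, 4.14 and 3.91 in SC HT. Every ST array was above every FC and HT array. The log2 difference was 1.18 ± 0.28 (SE) for ST minus FC (adjusted p = 0.00803) and -1.72 ± 0.25 for HT minus ST (adjusted p = 4e-05). The row was above background on 4 of 4 SC ST arrays, on 1 of 4 SC FC arrays and on 0 SC HT arrays. HT was thus at least 2.99-fold lower than ST when each HT value below the lowest signal marked above background on its array is raised to that signal. The difference between ST and FC is uncertain in size too.

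Hist1h2be, which encodes a core H2B and whose spot starts at base 2376 of the transcript, behaved alike in ST. Its values were 10.79, 10.18, 10.36 and 10.39 in SC ST, against 8.68, 9.41, 9.03 and 9.02 in SC FC and 9.59, 9.72, 9.10 and 9.31 in SC HT. No ST array overlapped with the other regions, and the row was 2.48-fold higher than in FC (log2 1.31 ± 0.20, adjusted p = 0.000934) and 2.01-fold higher than in HT (adjusted p = 0.000466). On CM the ST mean was 10.82 ± 0.09 (SD, n = 4), the FC mean 9.01 ± 0.27 (n = 3) and the HT mean 9.50 ± 0.10 (n = 4).

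The linker histone Hist1h1c (H1.2), read by a spot from base 1343 on, had values of 11.76, 11.61, 11.75 and 11.92 in SC ST. They were 10.50, 11.47, 10.54 and 10.91 in SC FC and 11.11, 10.92, 10.90 and 11.17 in SC HT. The ST arrays were again all highest, by 0.89 ± 0.19 over FC (adjusted p = 0.00553) and by 0.74 over HT (log2 difference HT minus ST -0.74 ± 0.18, adjusted p = 0.00433). Hist1h1b (H1.5) was lower in HT than in FC (-0.77 ± 0.26, adjusted p = 0.0225) and than in ST (-0.81 ± 0.28, adjusted p = 0.0423). Hist1h1e (H1.4) was higher in HT than in ST (0.77 ± 0.27, adjusted p = 0.0435), with values that overlapped: 12.98, 12.94, 12.57 and 11.96 in HT and 12.19, 12.72, 11.49 and 11.23 in ST. Both calls rested on single arrays: without the SC ST array of mouse 56 the difference HT minus ST was 0.17 for Hist1h1e (adjusted p = 0.721) and -0.48 for Hist1h1b (adjusted p = 0.231), and without the SC FC array of mouse 54 the difference HT minus FC of Hist1h1b was -0.55 (adjusted p = 0.105). The H1 rows thus did not share a direction: 2 were lower and 1 higher in HT than in ST, and 3 of 6 had an adjusted p of 0.05 or more.

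Class H2a held most of the rows that were lower in HT. In HT, 8 of 13 rows were lower and 1 was higher than in FC, and 11 were lower and 1 was higher than in ST. The row with the smallest adjusted p in HT against FC, Hist1h2af, had values of 14.29, 14.36, 14.19 and 14.24 in SC HT, 14.52, 15.10, 15.003 and 15.04 in SC FC and 14.91, 14.88, 14.86 and 14.57 in SC ST. HT was lowest without overlap, by 0.72 ± 0.10 against FC (log2 difference HT minus FC -0.72, adjusted p = 8.37e-06) and with a log2 difference of -0.58 ± 0.10 against ST (adjusted p = 0.000289). The largest falls in HT against FC were those of Hist1h2ab (-0.99 ± 0.19, adjusted p = 0.00035) and Hist1h2an (-0.82 ± 0.13, adjusted p = 6.31e-05).

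Other H2a rows went other ways. Hist2h2ab, a core H2A gene of the Hist2 cluster, had values of 6.92, 6.94, 6.26 and 6.60 in SC HT and of 6.12, 6.001, 5.97 and 5.19 in SC ST. HT was the higher region without overlap (0.68 ± 0.18, adjusted p = 0.00784). Hist2h2aa1, read at its stem-loop, was higher in ST than in FC (0.58 ± 0.15, adjusted p = 0.017) and in HT than in FC (0.40 ± 0.13, adjusted p = 0.0188), whereas Hist2h2aa2, read within the shared coding end, was lower in HT than in FC (-0.58 ± 0.08, adjusted p = 1.31e-05). These probes lie close together on chromosome 3, at 96049949 to 96050008 and at 96049837 to 96049896 (mm9). The annotation lists 2 histone genes for the Hist2h2aa2 spot, so that the opposite signs cannot be assigned to separate genes. Hist1h2aa, the H2A gene that is known from the testis, was higher in ST than in FC (0.59 ± 0.15, adjusted p = 0.0109) and lower in HT than in ST (-0.53 ± 0.13, adjusted p = 0.00669). Without the SC FC array of mouse 56, Hist2h2aa1 did not pass the test in either comparison with FC (0.44 for ST, adjusted p = 0.0876, and 0.26 for HT, adjusted p = 0.159), and without the SC ST array of mouse 56 the difference ST minus FC was 0.47 (adjusted p = 0.092) for Hist2h2aa1 and 0.50 (adjusted p = 0.056) for Hist1h2aa.

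The 7 H2a rows read at the coding end (Hist1h2af, Hist1h2ag, Hist1h2ah, Hist1h2ak, Hist1h2an, Hist2h2aa2 and Hist2h2ac) followed each other closely from array to array. With each row centered on its own mean, the gap between the highest and the lowest of the 7 on an array had a median of 0.18 and was at most 0.36 on the log2 scale. For the other 6 H2a rows the median gap was 0.94 and the largest 1.67. All 7 were lower in HT than in FC (log2 differences from -0.82 to -0.58) and than in ST (-0.65 to -0.52), and 0 of them differed between ST and FC (-0.17 to 0.02). Since their probes share most bases, these are not 7 independent measurements. The Hist1h2ak row also averages a probe from base 1 on, which was at 0.18 for ST minus FC against -0.14 for the probe at the coding end.

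In class H2b, 5 of 12 rows were lower in HT than in ST, 2 were lower in HT than in FC, and 2 were higher in ST than in FC. Besides Hist1h2be these included Hist1h2bc, whose values in ST and FC overlapped (0.73 ± 0.20 higher in ST, adjusted p = 0.0208), and Hist3h2ba, which was lower in HT than in FC (-0.46 ± 0.13, adjusted p = 0.00899; -0.34 and 0.0681 without the SC HT array of mouse 56, and -0.35 and 0.0569 without the SC FC array of mouse 58). Hist1h2ba, the H2B gene known from the testis, and Hist1h2bm were lower in HT than in ST (-0.63 ± 0.15 and -0.62 ± 0.16, adjusted p = 0.0047 and 0.00846). The annotation lists 4 histone genes for the Hist1h2bm spot and 1 for the Hist1h2ba spot. Both rows were similar in level, with SC ST means of 12.16 (Hist1h2ba) and 12.42 (Hist1h2bm) and SC HT means of 11.52 and 11.83. They may thus not be separate measures, and whether the Hist1h2ba signal came from that gene was not tested.

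In class H3, 3 of 7 rows were higher in ST than in FC, 2 were lower and 2 higher in HT than in FC, and 3 were lower in HT than in ST. Hist1h3c had values of 8.92, 8.65, 8.25 and 8.42 in SC FC, 8.55, 9.34, 9.75 and 9.21 in SC ST and 9.45, 9.46, 9.35 and 9.34 in SC HT. FC was below HT on every array (HT minus FC 0.93 ± 0.14, adjusted p = 2.66e-05), and 1 of the ST arrays lay among the FC arrays (ST minus FC 0.97 ± 0.16, adjusted p = 0.0014). Hist1h3c was also the 1 histone row that differed between slides, as given below. Hist2h3c1 and the neighboring gene Hist2h3c2-ps (current symbol H3c15) were lower in HT than in ST (-0.94 ± 0.19 and -1.32 ± 0.35, adjusted p = 0.000947 and 0.00863), in both cases without overlap. Without the SC ST array of mouse 56, Hist2h3c2-ps was at -1.02 (adjusted p = 0.0598). The annotation lists 3 histone genes for the Hist2h3c1 spot and 4 for that of Hist1h3d, named below for diet, so that these rows are not specific to single genes.

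Class H4 showed the least regional difference. None of the 9 rows passed the test between ST and FC or between HT and ST, at an unadjusted p under 0.05 in 1 and 0 rows, and 2 were higher in HT than in FC. These were Hist1h4j (0.44 ± 0.16, adjusted p = 0.0354) and Hist1h4i (0.31 ± 0.11, adjusted p = 0.0342). Neither call held without single arrays, with 0.32 for Hist1h4j without the SC HT array of mouse 54 (adjusted p = 0.152) and 0.12 for Hist1h4i without the SC FC array of mouse 56 (adjusted p = 0.382). Hist1h4i is the mean of 2 probes that went apart, with a log2 difference HT minus FC of 0.78 for the probe from base 484 on and -0.16 for the probe from base 24 on.

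**Figure D3:**
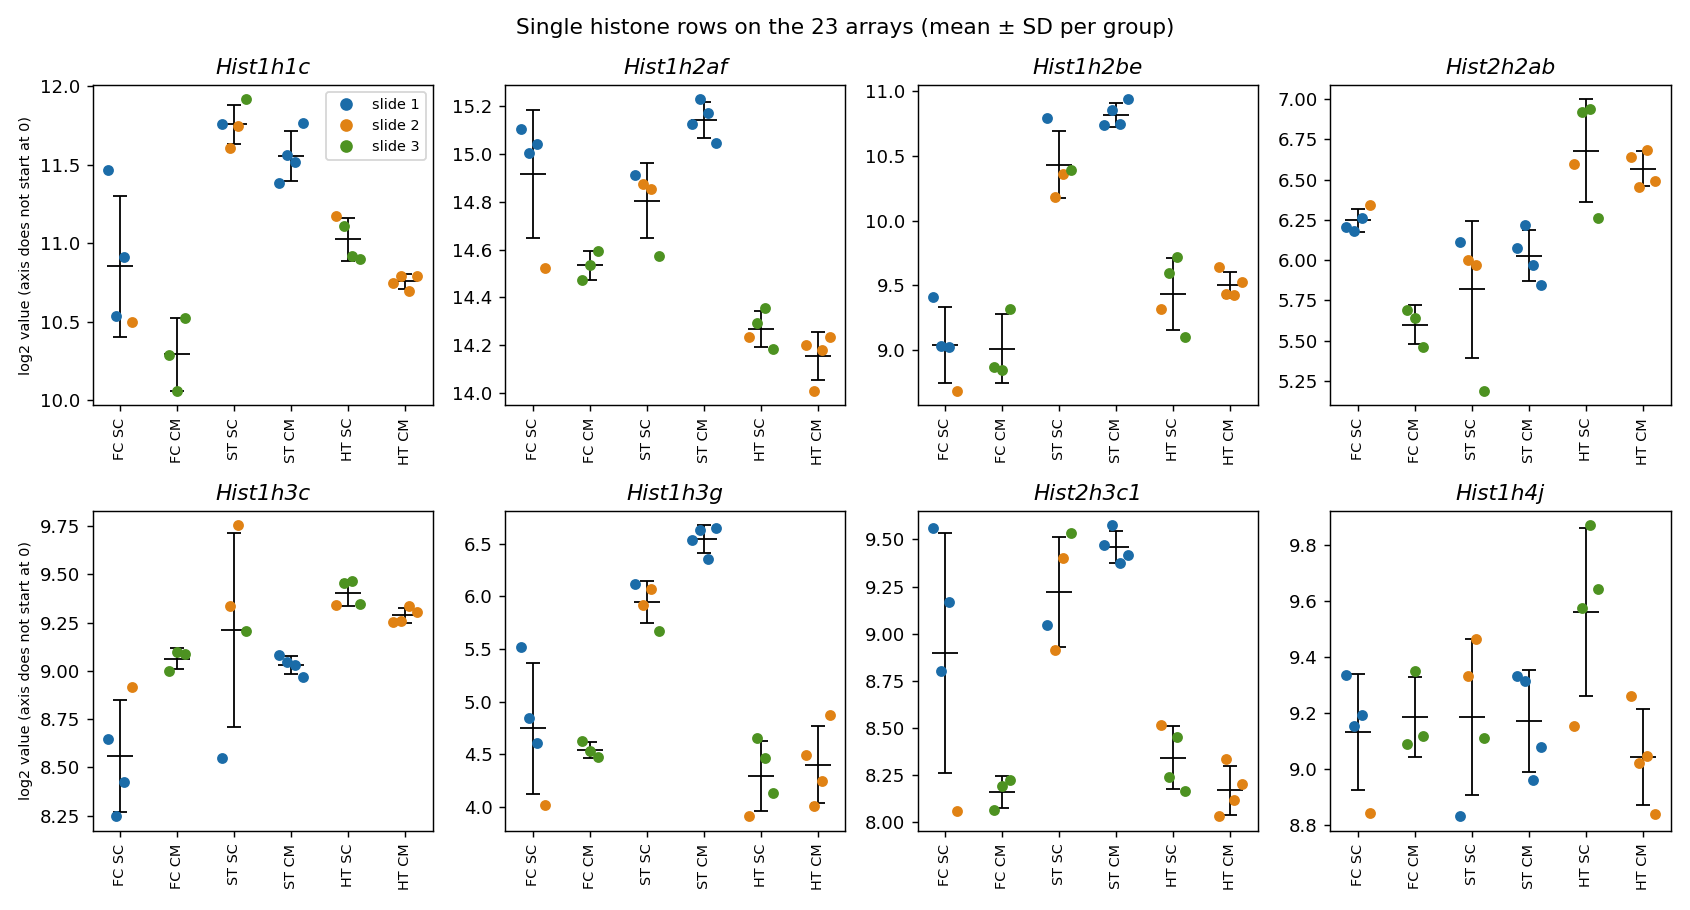
Single histone rows on the 23 arrays, with the log2 value of each array colored by slide and the mean with a bar of 1 SD in each direction for each group. Hist1h3g and Hist1h2be are higher on every ST array than on any other, Hist1h1c is highest on the ST arrays but for 1 SC FC array above the lowest CM ST array, Hist1h2af is lowest on the HT arrays, and the SC FC array of slide 2 lies with the CM FC arrays in Hist1h2af and Hist2h3c1.

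Over both diets, more rows passed the test. With the region difference averaged over SC and CM, 27 rows differed between ST and FC (25 higher in ST), 26 between HT and FC (9 higher in HT) and 35 between HT and ST (2 higher in HT), where 33.9%, 52.8% and 51.4% of the table were called. All 8 rows that differed between ST and FC on SC and all 23 that differed between HT and ST were among them, and so were 16 of the 18 of HT against FC.

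Slide was uneven between regions too, and its place in the model changed one regional comparison more than the others. With slide as a fixed term, 7 rows differed between ST and FC (7 higher in ST, 5 of them among the 8 above), where 10.9% of the table was called. Hist1h2be (1.64, adjusted p = 0.000275), Hist1h3g (1.52, adjusted p = 0.00216), Hist1h1c (1.07, adjusted p = 0.00267), Hist1h2bc (0.95, adjusted p = 0.00474) and Hist2h2aa1 (0.57, adjusted p = 0.0294) were the 5. In HT against ST, 7 rows differed with slide as a fixed term, where 15% of the table was called, and all 7 were among the 23. Of these, 6 were lower in HT, among them Hist1h3g (-1.62, adjusted p = 0.00368), Hist1h2be (-0.99, adjusted p = 0.0104), Hist2h3c1 (-0.89, adjusted p = 0.0385), Hist2h2aa2 (-0.43, adjusted p = 0.0205) and Hist1h2af (-0.42, adjusted p = 0.0491), and Hist2h2ab was higher (1.02, adjusted p = 0.00883). In HT against FC, 1 row differed, where 14.8% of the table was called, and it was not among the 18 (Hist1h4h, -0.67, adjusted p = 0.0284). The median of the 47 rows for HT minus FC was then 0.01, with 24 rows positive and 23 negative. Averaged over both diets with slide as a fixed term, a fit added after the values were seen, the counts were 17, 22 and 17 for ST against FC, HT against FC and HT against ST, where 23.1%, 45.5% and 27.5% of the table were called.

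Genes around histone supply were compared in the same regions, beside the 20.4% of the table that was lower in HT than in FC and the 10.8% that was lower in HT than in ST. Of 29 rows of an S phase and mitosis list, 8 were lower and 1 higher in HT than in FC, and 7 were lower and 2 higher in HT than in ST. Among the lower rows were the proliferation marker Mki67 (HT minus ST -1.41, adjusted p = 0.0101), the topoisomerase Top2a (-1.17, adjusted p = 0.000966) and the replication licensing gene Mcm5 (-1.06, adjusted p = 0.000163). Top2a was above background on 5 ST arrays and on 0 HT arrays over both diets, so that its difference is uncertain in size. Of 19 rows of histone chaperones, 8 were lower and 1 higher in HT than in FC, led by the chromatin assembly subunit Chaf1a (-1.06, adjusted p = 4.35e-05). Of 17 genes of histone mRNA transcription and processing, 4 were lower and 1 higher in HT than in FC, and 2 were lower and 3 higher in HT than in ST. Slbp, whose protein binds the stem-loop, was higher in HT than in ST (0.84, adjusted p = 0.000755), opposite in sign to most histone rows. Of the histone variants outside the clusters, H2afx was lower in HT than in FC (-0.45, adjusted p = 0.000616). Of 3 rows of H2afy (macroH2A1), 2 were higher (0.35 and 0.68). Of 7 rows of the microglia and leukocyte list, 5 were lower in HT than in FC and 6 lower in HT than in ST, and their part in the histone differences was not tested.

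No histone row was called by the thresholds of the diet comparisons. In FC, at 2-fold and an adjusted p under 0.01 with limma, 0 of 47 rows were called against 2.94% of the table, in ST at the same thresholds 0 against 0.602%, and in HT, at 1.5-fold and an adjusted p under 0.05, 0 against 0.178%. At an unadjusted p under 0.05 32 rows passed in FC, 14 rows in ST and 11 rows in HT. The differences below are those at an adjusted p under 0.05 with no fold threshold.

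In FC, 22 histone rows were lower on CM and 3 were higher, where 28.6% of the table was called, 13.2% as lower and 15.4% as higher. The median log2 difference was -0.42 over the 47 rows and -0.04 over the table, and 39 rows were negative. By class, 9 of 13 H2a rows, 6 of 12 H2b rows, 3 of 7 H3 rows, 3 of 9 H4 rows and 1 of 6 H1 rows were lower. The linker gene Hist1h1t, known from the testis (0.66 ± 0.16, adjusted p = 0.00377), Hist1h3c (0.60 ± 0.13, adjusted p = 0.00149) and Hist1h4h (0.39 ± 0.11, adjusted p = 0.0119) were higher, the last at 0.34 (adjusted p = 0.0517) without the CM array of mouse 56. Hist1h3d had the smallest adjusted p among the H3 rows, with values of 12.42, 13.38, 12.84 and 12.97 on SC and of 12.25, 12.35 and 12.29 on CM (-0.64 ± 0.10, adjusted p = 0.000184). The groups did not overlap, but the lowest SC array, that of slide 2, was nearer to the CM arrays than to the other SC arrays. The same held for Hist2h3c1, with 8.06, 9.56, 8.80 and 9.17 on SC and 8.07, 8.19 and 8.22 on CM (-0.82 ± 0.16, adjusted p = 0.000958), whose groups overlapped.

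The largest fall in FC, that of Hist1h2bq, rested on 1 array. Its values were 4.63, 5.52, 7.87 and 4.69 on SC and 4.72, 4.51 and 4.89 on CM, and 1 of the SC arrays was above background. The fitted log2 difference was -1.40 ± 0.43 (adjusted p = 0.0205), -0.23 (adjusted p = 0.534) without the SC array of mouse 56 and -1.27 (adjusted p = 0.0671) without the CM array of mouse 56. The next falls were those of Hist2h3c2-ps (-1.07 ± 0.29, adjusted p = 0.0107) and Hist2h3c1. Hist2h3c2-ps was at -0.71 (adjusted p = 0.0823) without the SC array of mouse 54, -0.79 (adjusted p = 0.0638) without that of mouse 58 and -0.82 (adjusted p = 0.0608) without the CM array of mouse 56. In H2a, Hist2h2ab fell from 6.34, 6.21, 6.18 and 6.26 to 5.69, 5.64 and 5.46 without overlap (-0.62 ± 0.15, adjusted p = 0.00462), and here the SC array of slide 2 was the highest. All 7 rows of the H2a coding end were lower on CM (-0.50 to -0.29).

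In FC, diet and slide cannot be told apart for these rows. The SC FC array on slide 2 was below the mean of the 3 SC arrays on slide 1 in 40 of 47 histone rows, below every one of them in 29 rows, and nearer to the CM mean than to that slide 1 mean in 38 rows, although it is an SC array. Its median difference from the slide 1 mean was -0.46. With slide as a fixed term, 0 histone rows and 0% of the table differed between the diets in FC, and the median of the histone rows was -0.07. With that term 35 of 47 rows were negative, and 22 of the 25 rows called without slide kept their sign. Striatal genes also moved on these arrays: the median over 10 rows of the striatum list, centered per row, was -1.87 on the SC array of slide 2, between -0.40 and 0.21 on the other 3 SC arrays, and -1.96, -1.62 and 0.18 on the CM arrays. On the CM array of mouse 58, where the striatal level was within the range of the SC arrays of slide 1, the median of the 47 centered histone rows was -0.14, against 0.04 to 0.39 on those SC arrays. All rows of the striatum list were above background on all 7 FC arrays, and their part in the histone difference was not tested.

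**Figure D4:**
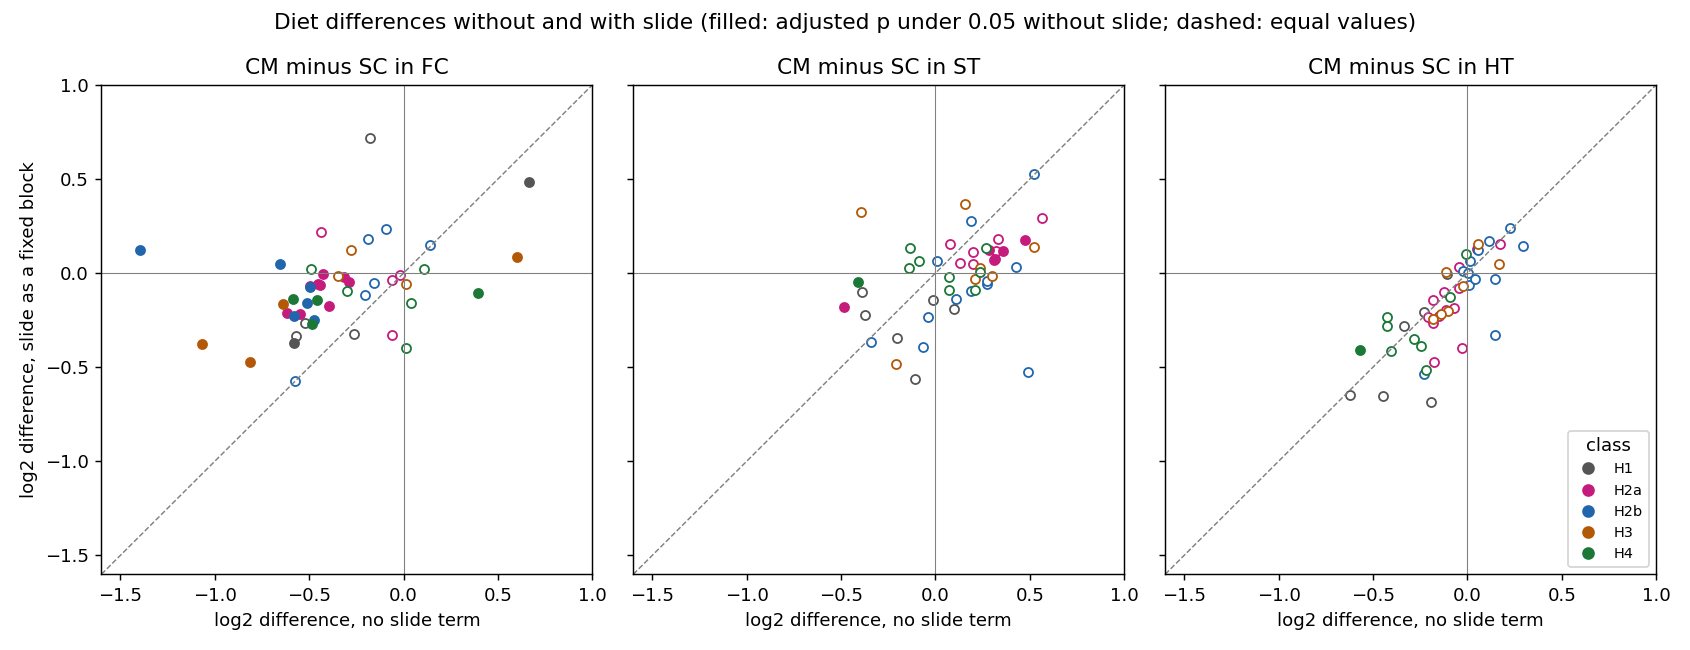
Each point is 1 histone row, with its CM minus SC log2 difference in the model without slide on the horizontal axis and with slide as a fixed term on the vertical axis, 1 panel per region and filled where the adjusted p without slide is under 0.05. In FC most points lie left of -0.3 on the horizontal axis and between -0.4 and 0.2 on the vertical axis, and no row passes the test with slide.

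In ST, 4 histone rows were higher on CM and 2 were lower, where 9.82% of the table was called and 3.45% was called as higher. The 4 were H2a rows of the coding end: Hist1h2an (0.48 ± 0.13, adjusted p = 0.0295), Hist2h2ac (0.36 ± 0.09, adjusted p = 0.0231), Hist1h2af (0.31 ± 0.10, adjusted p = 0.0449) and Hist2h2aa2 (0.29 ± 0.08, adjusted p = 0.0295). Hist1h2an had values of 13.94, 14.02, 13.92 and 13.77 on SC and of 14.44, 14.48, 14.42 and 14.19 on CM, and the 4 rows had no overlap between the diets. Hist1h2aa (-0.49 ± 0.12, adjusted p = 0.02) and Hist1h4h (-0.41 ± 0.12, adjusted p = 0.0398) were lower on CM, with overlap, and without the SC array of mouse 54 Hist1h4h was at -0.28 (adjusted p = 0.0536). The median over the 47 rows was 0.19, and 32 rows were positive. Without the CM array of mouse 54 the 4 differences were nearly as large but did not pass the test, at 0.45 for Hist1h2an (adjusted p = 0.064), 0.34 for Hist2h2ac (adjusted p = 0.053), 0.29 for Hist1h2af (adjusted p = 0.0943) and 0.27 for Hist2h2aa2 (adjusted p = 0.0686). Without that array, 1 row passed the test, and without that of mouse 56, 3 rows. Under median scaling 13 rows were higher and 1 was lower.

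Slide 1 held all CM ST arrays and 1 SC ST array. Within it, the CM mean was above the SC array in 34 of 47 rows, with a median of 0.11 against 0.0054 over the table, and by 0.44 for Hist1h2an, 0.29 for Hist2h2ac, 0.23 for Hist1h2af and 0.26 for Hist2h2aa2. For the lower rows the difference within slide 1 was 0.06 for Hist1h2aa, of opposite sign, and -0.03 for Hist1h4h. With slide as a fixed term no histone row differed in ST (1 at an unadjusted p under 0.05 with limma), and all 6 rows kept their sign. The choroid plexus list stood high on 1 of these arrays, with a centered median over its 7 rows of 4.54 on the CM array of mouse 58 and between -0.11 and 0.60 on the other CM arrays, and its part in the histone differences was not tested. On that array the rows of Hist1h2an and Hist1h2af were the lowest of the CM ST arrays, whereas Hist2h2aa1 (13.30) and the H2b class level (0.53) were the highest.

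In HT, 1 histone row was lower on CM, Hist1h4j, where 0.43% of the table was called. Its values were 9.57, 9.87, 9.64 and 9.15 on SC and 9.26, 9.02, 9.05 and 8.84 on CM (-0.57 ± 0.12, adjusted p = 0.0471). The SC array of slide 2, the slide of all CM HT arrays, was the lowest SC array and lay within the CM range, and within slide 2 the difference was -0.11. Over all slides the difference was -0.45 without the SC array of mouse 54 (adjusted p = 0.348) and -0.52 without that of mouse 56 (adjusted p = 0.195). It did not pass the test without several other arrays either, some of them of FC or ST, such as SC FC of mouse 58 (-0.57, adjusted p = 0.0618). The median over the 47 rows was -0.11, and all 9 H4 rows and all 6 H1 rows were negative. No row passed the test with slide as a fixed term, and 5 passed without the SC array of mouse 58, the one on slide 2.

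**Figure D5:**
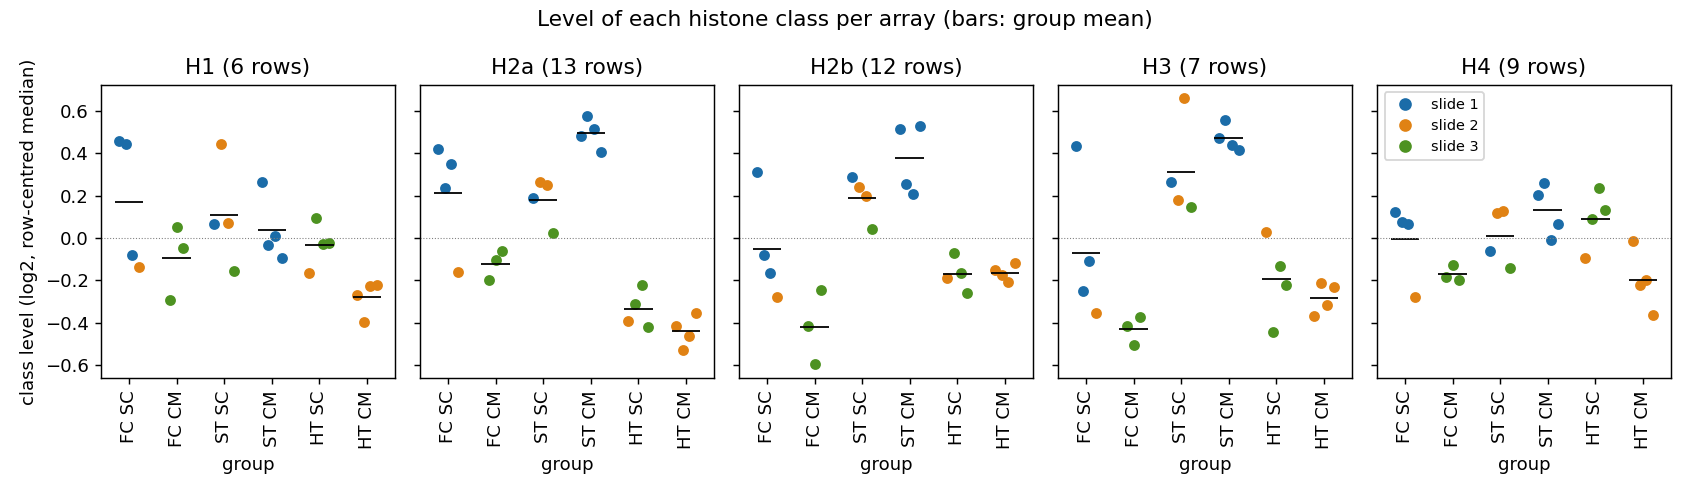
Each point is the median over the rows of 1 histone class on 1 array, after subtracting the mean of each row over the 23 arrays, with arrays colored by slide and a bar at the group mean. H2a lies between 0.41 and 0.58 in CM ST and between -0.53 and -0.22 in HT, and in each class the SC FC array of slide 2 is the lowest of the SC FC arrays.

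The class levels showed the regions and the slides side by side. H2a had a group mean of 0.50 ± 0.07 (SD, n = 4) in CM ST, 0.18 ± 0.11 in SC ST, 0.21 ± 0.26 in SC FC, -0.12 ± 0.07 (n = 3) in CM FC, -0.34 ± 0.09 in SC HT and -0.44 ± 0.07 in CM HT. H2a was thus highest in CM ST and lowest in HT, with SC FC and SC ST within each other's spread, and the HT groups differed by about their spread. H3 was highest in ST too (0.47 ± 0.06 on CM and 0.31 ± 0.24 on SC), but its lowest group was CM FC (-0.43 ± 0.07, n = 3). H4 had the narrowest range over the 23 arrays, 0.62, against 0.86 in H1, 1.11 in H2a, 1.13 in H2b and 1.17 in H3.

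The diet difference itself differed between regions in the model without slide. Against FC, it was higher in ST in 21 rows and lower in 3, where 30.1% of the table was called and 14.2% was higher in ST. It was higher in HT than in FC in 8 rows and lower in 3, where 20% of the table was called. Between HT and ST 0 rows and 0% of the table were called, at an unadjusted p under 0.05 in 15 rows with limma. Both comparisons with FC share the FC arrays, and with slide as a fixed term no row passed in any of the 3 comparisons. Without the SC FC array of mouse 52, on slide 2, 20 rows passed for HT against FC and 6 for HT against ST. Hist2h2ac, for example, was -0.42 ± 0.09 in FC, 0.36 ± 0.09 in ST, and the difference of 0.78 between them had an adjusted p of 0.00018. Of the 22 rows lower on CM in FC, 18 were positive in ST.

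Slide as a term of its own, with 6 group means beside it, gave 1 histone row at an adjusted p under 0.05, where 8.13% of the table was called. It was Hist1h3c, higher by 0.75 ± 0.13 on slide 2 and by 0.65 ± 0.19 on slide 3 than on slide 1 (adjusted p = 0.00266). At an unadjusted p under 0.05 there were 7 rows. The histone rows leaned one way, with 34 of 47 lower on slide 2 and 37 lower on slide 3 than on slide 1, medians of -0.24 and -0.30, and medians of -0.04 and -0.05 over the table.

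The rows were also read by the kind of spot. For CM minus SC in FC, all 11 rows with spots starting beyond base 500 (for H1, past the gene), as defined above, were negative (5 at an adjusted p under 0.05). All 11 were also negative in HT against ST (7 passed). Of the 13 rows with spots shared between histone genes, 10 were lower on CM in FC, 7 lower in HT than in FC and 7 lower in HT than in ST. Of the 5 rows at the stem-loop, all 5 were negative in FC on CM and 1 passed, Hist2h2bb (-0.66 ± 0.14, adjusted p = 0.00224, and 0.05 with slide as a fixed term). Of the remaining 18 rows, which include Hist1h1e and Hist1h1t with H1 spots beyond base 500 but within the gene, 12 were negative in FC on CM, 6 were lower and 3 were higher. Rows lower on CM in FC at an adjusted p under 0.05 were thus found in all 4 kinds of spots. Rows higher at that threshold were found in the remaining rows alone, a split that was seen after the values and not tested. By sign alone some rows with shared spots were positive too, up to 0.04. The kinds are not fully distinct, since Hist1h2ag and Hist2h2ac of the H2a coding end are among the remaining rows.

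The related gene lists were read against the 28.6% of the table called for diet in FC. In FC, 1 row of S phase and mitosis was higher and 1 lower on CM (of 29), 2 chaperone rows were higher and 4 lower (of 19), and 1 gene of histone mRNA processing was higher and 3 were lower (of 17). The lower ones included Slbp (-0.46 ± 0.14, adjusted p = 0.0186), Npat, which activates histone gene transcription (-0.46 ± 0.15, adjusted p = 0.0242), and Chaf1a (-0.84 ± 0.15, adjusted p = 0.000465). Npat was above background on 4 of 7 FC arrays, so that its difference is uncertain in size. The linker variant H1f0, typical of cells that no longer divide, was lower on CM in FC (-0.97 ± 0.19, adjusted p = 0.00113), and the oocyte linker gene H1foo was higher in FC (0.72 ± 0.14, adjusted p = 0.00116) and lower in ST (-1.01 ± 0.16, adjusted p = 0.00398). Of the variant rows of H2A, 4 of 10 were lower in FC, with rows of H2afy among them, and 0 of 3 variant rows of H3 changed. In HT no row of these lists passed the test for diet. Of markers of dividing precursors and young neurons, 0 of 6 neuroblast rows and 1 of 5 oligodendrocyte precursor rows passed the test in FC.

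The promoters were read to describe the classes, and a link to the differences above was not tested. RefSeq promoters on GRCm38.p6 were available for 42 of the 47 rows, and the 250 bases before each start were searched on both strands. The CCAAT box was found in 34 of the 42 (81%) and in 34.5% of 27025 promoters, with all 6 H1, all 13 H2a and all 9 H2b promoters, 4 of 6 in H3 and 2 of 8 in H4. The octamer ATTTGCAT, known from H2B promoters, was found in 11 (26.2%) against 1.61%, in 6 of 13 H2a and 5 of 9 H2b promoters and in none of the other classes. TATAAA was found in 21 (50%) against 13%. H2A and H2B genes often lie head to head and share the stretch between them, so that these promoters are not independent. The promoter of Hist1h3g (current symbol H3c8) is shown because this row differed most between regions, on the plus strand at chr13:23535168-23535417 of GRCm38.p6, with the 3 CCAAT matches in capitals.
Hist1h3g promoter: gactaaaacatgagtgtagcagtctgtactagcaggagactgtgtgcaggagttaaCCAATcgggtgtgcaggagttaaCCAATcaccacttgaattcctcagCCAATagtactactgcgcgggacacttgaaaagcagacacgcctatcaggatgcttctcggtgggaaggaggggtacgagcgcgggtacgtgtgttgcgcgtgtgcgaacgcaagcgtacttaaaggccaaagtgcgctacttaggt
A match is a stretch of letters and says nothing of a bound factor.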

How the data were processed

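The authors scanned 1-color Agilent arrays (annotation mm9) with Feature Extraction 10.7.3.1, and the deposited scanner files hold linear intensity per spot. The deposited series table holds log2 values that the authors made by normexp background correction (offset 0), quantile normalization, a filter (308 negative controls, their 95th percentile times 1.1, passed on at least 4 arrays), and averaging by transcript identifier. Rebuilt from the median intensities, they differed from the deposited log2 values by at most 5e-09. Quantile normalization removes a shift of all genes.

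Differences were tested with limma 3.58.1 (statmod 1.5.0, R 4.3.3) on all arrays, with 6 group means, array weights, the mouse as a random block, which pairs regions of an animal, and Benjamini-Hochberg adjustment over 31395 rows, after a run on simulated data. As in the code of the study, no slide term was used. Thresholds for diet follow the study. A row is above background where the scanner software marks a spot of it so.

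The histone rows and the other lists were chosen with earlier results of these data known. Named are the 2 largest rises and falls per comparison among rows at an adjusted p under 0.05, the smallest adjusted p per class for HT against FC and for diet in FC, the widest and narrowest range, and 11 histone genes that the study lists. Other named rows were chosen after their values were seen.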

Additional observations from a re-analysis of the deposited data

Results flagged for a closer look

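On single arrays, 8 of 135 groups of 4 values held 1 value far from the other 3, by the gap to its neighbor divided by the range of the group, which chance gives in about 1 in 20 groups. Among the H1 and H3 rows, Hist1h1t was low (0.842) and Hist1h3d was high (0.964) on the SC HT array of mouse 58, the only SC HT array on slide 2. Hist1h4d (0.882) and Hist2h2ab (0.84) were low on the SC ST array of mouse 58, the only SC ST array on slide 3. Hist2h2aa2 was low (0.857) on the SC FC array of mouse 52, the only SC FC array on slide 2. The other 3 were on CM arrays that share a slide with their group: Hist1h4i was high on the HT array of mouse 52 (0.904), and Hist2h2aa1 was high on the ST array of mouse 58 (0.872) and low on the HT array of mouse 56 (0.934). Of the 8 values, 5 thus lay on arrays that were alone on their slide within their group, and the part of slide in them was not tested.

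The diet difference (CM minus SC) of named histone rows differed between ST and FC by limma at an adjusted p under 0.05. The log2 difference ST minus FC was positive in the H2a rows Hist1h2ab (1, adjusted p = 0.00701), Hist1h2af (0.757, adjusted p = 0.000287), Hist1h2ah (0.516, adjusted p = 0.00642), Hist1h2ak (0.726, adjusted p = 0.000962) and Hist1h2an (0.971, adjusted p = 0.000561). It was positive too in the Hist2 rows Hist2h2aa2 (0.576, adjusted p = 0.00065), Hist2h2ab (0.748, adjusted p = 0.0177), Hist2h2ac (0.78, adjusted p = 0.00018) and Hist2h2bb (0.593, adjusted p = 0.0453). Of the other classes, Hist1h2bq (1.89, adjusted p = 0.0351), Hist1h3d (0.939, adjusted p = 0.000157) and Hist1h4d (0.793, adjusted p = 0.0042) were positive. Without the SC FC array of mouse 56, Hist1h2bq was at 0.73 (adjusted p = 0.136). Hist1h1t (-1.04, adjusted p = 0.00272), Hist1h3c (-0.996, adjusted p = 0.000623) and Hist1h4h (-0.8, adjusted p = 0.00136) were negative.

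Between HT and FC, the diet difference was higher in HT for Hist1h2af (0.332, adjusted p = 0.0489), Hist1h3d (0.454, adjusted p = 0.0226), Hist2h2ab (0.594, adjusted p = 0.0412) and Hist2h2ac (0.352, adjusted p = 0.034). It was lower for Hist1h1t (-0.999, adjusted p = 0.00213), Hist1h3c (-0.706, adjusted p = 0.00546) and Hist1h4j (-0.607, adjusted p = 0.0358). Of the 7, Hist1h3c and Hist1h1t alone passed the test without any 1 of the arrays. None of these differences passed the test with slide as a fixed term, and all rest on the FC arrays, in which no slide held both diets.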

How the results depend on the processing

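Of 3037 recomputed values of named rows, 2642 kept direction and side of the threshold, 380 kept direction alone and 15 reversed. With slide as a fixed term, histone rows at an adjusted p under 0.05 were 0 for diet in each region and for every difference of the diet effect between regions, 1 in HT against FC and 7 in HT against ST. With slide as a random block they were 3 in FC, 0 in ST and HT, 10 in HT against FC, and 6 (ST against FC) and 0 (HT against FC) for differences of the diet effect. Without array weights they were 10, 0 and 0 in FC, ST and HT, 1 for the diet effect in HT against FC and 7 for slide. Fitting only the compared regions gave 12, 0 and 0, and 2 for the diet effect in HT against ST. The replicate block by mouse number, which the diets share though the mice differ, gave 3 in ST and 0 in HT at an adjusted p under 0.05 and 1 at the thresholds of the study in FC. A background offset of 50 gave 10 in ST, 4 in HT and 2 for the diet effect in HT against ST. Under median scaling the median diet difference of all rows was -0.16 (FC) and 0.11 (ST), against -0.04 and 0.03 with quantile normalization. Median scaling gave 14 in ST, 0 in HT, 5 in ST against FC, 23 and 1 for the diet effect in HT against FC and ST, and 2 for slide. The other filter gave 2 in HT and 1 for the diet effect in HT against ST, no filter 2, 0 and 4 (ST, HT, diet effect in HT against FC), and mean signal 0 in HT. 1 value per probe gave 2 in HT and 2 for slide, the processed signal 2 for slide, and weights by REML 1 for the diet effect in HT against ST. Averaging both diets gave 27 in ST against FC and 35 in HT against ST, and 17 in ST against FC with slide as well, an alternative chosen after seeing the data. At 2-fold and an adjusted p under 0.01 the regional counts were 2, 0 and 3. In FC, 1 row was called at the thresholds of the study with weights by REML, mean signal, median scaling or the other filter, and 2 with the processed signal. By adjusted p alone 25, 6 and 1 rows were called for diet. Leaving out 1 array gave 0 to 1, 0 to 0 and 0 to 2 rows at the study's thresholds in FC, ST and HT (2 without SC HT 58). By adjusted p it gave 18 to 29, 1 to 8 and 0 to 5. The regional counts were 5 to 11, 15 to 24 and 17 to 24, and slide gave 1 to 5 (5 without SC ST 52 or SC HT 58). The diet effect gave 20 to 27, 3 to 20 (3 without SC HT 56, 4 without SC FC 54, 5 without SC FC 58, 6 without CM FC 54 or 56, 7 without SC HT 54) and 0 to 6 (6 without SC FC 52 or SC ST 54, 4 without SC ST 52). The class levels per array, range of H1 over 23 arrays, of H2a, H2b and H3 likewise, moved to 0.554 (H1), 0.672 (H2b) and 0.753 (H3) with the offset, 1.32 (H2a) and 1.45 (H3) with the processed signal, 1.37 (H2a) with median scaling, 0.963 (H2b) with mean signal and 1.36 (H2b) with the other filter. Within slide 1, Hist1h2aa reversed in ST (0.0572). With slide fixed, diet in FC reversed for Hist1h2bq (0.122), Hist1h4h (-0.103) and Hist2h2bb (0.0496), HT against FC for Hist1h3d (0.0751, and 0.0349 over both diets) and Hist2h2bb (0.212), the diet effect in ST against FC for Hist1h2bq (-0.649), Hist1h3c (0.238), Hist1h4h (0.0554) and Hist2h2bb (-0.443), and in HT against FC for Hist1h2af (-0.135), Hist1h3d (-0.0804), Hist2h2ab (-0.184) and Hist2h2ac (-0.183). The cause was not tested. The number of arrays limits all of these.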
